A study of Mus musculus with 3 samples.

Results

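The killer cell lectin-like receptors are a family of C-type lectin-like proteins of the cell surface, and 10 of their genes (Klra2, Klra4, Klra7, Klra8, Klrb1c, Klrc1, Klrd1, Klre1, Klrg1 and Klrk1) were followed here across the immune cells of the mouse pancreas. The 10 genes were chosen by name from the 31053 genes of the count tables, which hold 26 genes with a Klr symbol. Single-cell RNA sequencing had been performed on live CD45+ cells sorted from the pancreas of wild-type C57BL/6J mice of both sexes, 6 to 8 weeks of age, after intraperitoneal PBS or a single intraperitoneal dose of whole glucan particles (WGP), a particulate β-glucan from yeast. There were 3 libraries, 1 for PBS, 1 for WGP injected 3 days ahead of harvest (3-day WGP) and 1 for WGP injected 7 days ahead of it (7-day WGP), and the labels state neither the number of mice in a library nor their sex. With 1 library in each group no difference between groups could be tested, so the intervals below are 95% exact intervals that cover counting error only, and differences between animals are not in them.

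Cells were barcodes with at least 1000 unique molecular identifiers (UMIs, each counting 1 captured transcript) and at most 30% mitochondrial UMIs. After removal of the likeliest doublets 5029 PBS, 4689 3-day WGP and 4035 7-day WGP cells remained, with medians of 5507, 5580 and 7806 UMIs, and any pair of libraries shared at most 9 cell barcodes. Cells were clustered without the Klr genes and named from fixed marker genes that include no Klr gene, so that a class is a set of cells like the type it is named for, and the ending "-like" is left out below. There were 115, 399 and 366 NK cells (PBS, 3-day WGP and 7-day WGP, the order kept throughout), 86, 167 and 137 CD8 T cells, 73, 223 and 46 gamma-delta T cells and 264, 277 and 15 group 2 innate lymphoid cells (ILC2). The markers mostly held in these classes. The NK cell receptor Ncr1 was seen in 91.9% of the NK cells, and the T cell receptor subunits Cd3e and Cd3g in 1.7% and 10.1%. By library Cd3g was seen in 14.8%, 10% and 8.74% of the NK cells. Cd8b1 was seen in 91.5% of the CD8 T cells and Trdc in 99.1% of the gamma-delta T cells. Gata3 was seen in 87.8% of the ILC2 against 2.52% with Cd3e. A cluster of 125, 98 and 217 cells, L1, scored as innate-like T cells, but only 1 of its leading genes (Xcl1) is on that list and 2 (Ly6c2 and Ms4a4c) are on the Ly6C-high monocyte list. Cd3e was seen in 79.5% of its cells, Trdc in 20.5%, Ncr1 in 21.4% and Cd8a in 21.4%, so it is called L1 below and not taken as a single type.

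These receptors are best known from NK cells, which weigh signals of activating receptors against signals of inhibitory ones that bind class I MHC molecules. Inhibitory members carry in their cytoplasmic tail a short tyrosine-centred motif that recruits phosphatases such as Ptpn6 (SHP-1), while activating members lack it and signal through adaptor proteins, Tyrobp (DAP12) for the activating Ly49 receptors and Hcst (DAP10) for NKG2D. The Klra genes encode the Ly49 receptors, of which a single NK cell expresses only some, so that NK cells differ in the set they carry. All 10 genes lie on chromosome 6, Klrg1 alone at chr6:122270596-122282882 and the other 9 together, from Klrb1c at chr6:128778485-128789215 to Klra2 at chr6:131219223-131247362. The 3′ ends of several members are so alike that reads can be assigned to the wrong one, and this was measured beside each result it touches.

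The tail motif separates the inhibitory from the activating members, and the stretch of coding sequence around it is therefore shown. The sequences are those of the annotated genes (GRCm38, GENCODE M21, minus strand, chromosome 6), 5′ to 3′ on the coding strand. Capitals mark the codon of the motif's tyrosine and, in Klra4 and Klra8, where the motif was not found, the codon aligned with it.
Klra7 (Ly49G2, inhibitory; chr6:130231579-130231608): caggaggtcactTACtcaactgtgagattt
Klra2 (Ly49B; chr6:131245288-131245317): caggaggtcactTACacaactctgagattt
Klra4 (Ly49D, activating; chr6:130065264-130065293): caggaagacactTTCtcagctgtgagattc
Klra8 (Ly49H, activating; chr6:130128122-130128151): caggaggtcactTTCccaactatgagattc
Klrc1 (NKG2A, inhibitory; chr6:129678872-129678901): gaacgcgtcaccTATgcagaactgaaggtg
Klrg1 (inhibitory; chr6:122282776-122282805): gacagctctatcTATtcaacactagagctg
The tyrosine codon TAC of Klra7 and Klra2 stood as TTC, a phenylalanine codon, in Klra4 and Klra8. The capitals are codon 8 of each protein, or codon 7 in Klrg1, in exon 1 of the Klra7, Klrc1 and Klrg1 transcripts and exon 2 of the others. No motif was found in the first 30 codons of Klrb1c, Klrd1, Klre1 and Klrk1, and later codons were not searched.

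Across the classes the members fell into separate patterns. Klra4 and Klra8 were detected almost only in NK cells, Klra7, Klrb1c, Klrc1 and Klre1 in NK cells and L1, and Klrd1 and Klrk1 also in dendritic cells. Klrc1 and Klre1 had lower levels in CD8 T cells. Klra7 and Klrb1c rested on few UMIs there, 1, 16 and 22 for Klra7 and 3, 14 and 10 for Klrb1c. After thinning Klrb1c was seen in 1.16%, 0.599% and 0.73% of CD8 T cells and 1.37%, 3.46% and 1.79% of CD4 T cells. Klrg1 was highest in ILC2 and Klra2 was a myeloid transcript. B cells, which should lack these receptors, gave the background: no member exceeded 5.19 CPM (summed UMIs of the gene per 1000000 UMIs of its class) in B cells of any library, and a UMI of any member was seen in at most 1.37% of them, or 0.313% once every cell was thinned to 1000 UMIs. Median depths were 3739, 4204 and 4983 UMIs in B cells and 4087, 3681 and 5837 in NK cells.

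**Figure D1:**
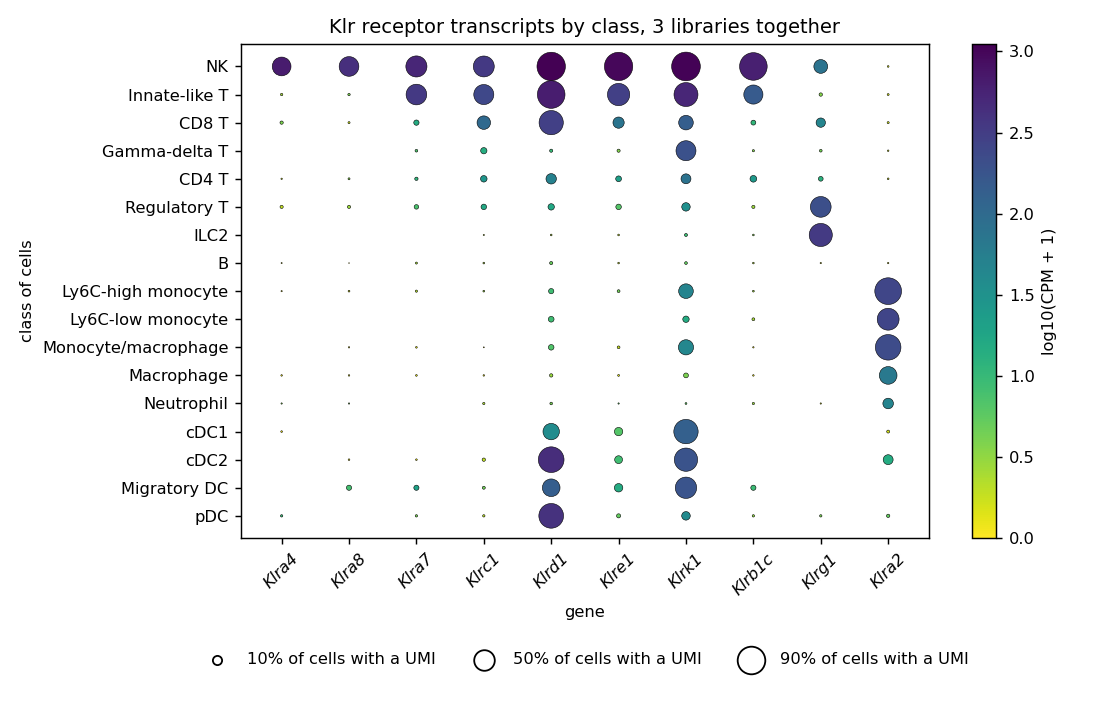
Level of each member by class of cells, all 3 libraries together; colour gives log10(CPM + 1) and the area of a circle the percentage of cells with a UMI of the gene, unthinned. The Klra4, Klra8, Klra7, Klrc1, Klrd1, Klre1, Klrk1 and Klrb1c columns are darkest in NK cells, Klrg1 is darkest in ILC2 and Klra2 in monocytes.

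In NK cells the receptor set was present in each of the 3 libraries, and no member was 2-fold or more apart between PBS and WGP. Of the 10 members 9 reached 10 CPM in NK cells, all but Klra2, and at 3 days 0 of the 9 were at least 2-fold higher (log2 ratio of CPM + 10 of at least 1), where 0.869% of the 7823 genes that reached 10 CPM were, and 0 were at least 2-fold lower, where 0.371% were. At 7 days 0 were higher and 0 lower, with 1.58% and 0.494% of 7897 genes. The members' median log2 ratios were -0.01 and -0.03, beside medians of -0.02 and 0.02 over all genes tested. The NK cells made up 2.29% (1.89 to 2.74%) of PBS cells, 8.51% (7.73 to 9.34%) at 3 days and 9.07% (8.20 to 10.0%) at 7 days, and the CPM values below are levels within these cells and do not count how many there were.

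The receptors that most NK cells carry were level across the libraries. Klrd1 (chr6:129591782-129598775), which encodes CD94, the common partner of the NKG2A and NKG2C chains, stood at 1072 (987 to 1162), 1132 (1085 to 1180) and 1102 (1062 to 1144) CPM. It was detected in 95.7%, 93.5% and 97.3% of the NK cells, or 60.9%, 64.2% and 63.1% after thinning. Klrk1 (chr6:129610323-129623864), which encodes the activating receptor NKG2D, stood at 1095 (1010 to 1186), 1027 (983 to 1074) and 1059 (1020 to 1100) CPM. Klre1 (chr6:129577905-129585827), which encodes NKG2I, stood at 1019 (937 to 1107), 942 (899 to 986) and 1011 (972 to 1051) CPM. For all 3 genes the intervals of PBS overlapped those of both WGP libraries, and the counting intervals of the log2 ratios lay between -0.25 and 0.21. Klrb1c (chr6:128778485-128789215), which encodes the NK1.1 antigen, stood at 597 (534 to 665), 653 (618 to 690) and 557 (528 to 586) CPM, and the 3-day and 7-day intervals did not overlap. A Klrb1c UMI was seen in 83.5%, 90.2% and 91.5% of NK cells, or 40.9%, 51.6% and 43.2% after thinning.

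Klrc1 (chr6:129666015-129678973), the inhibitory NKG2A chain that with CD94 binds Qa-1 (H2-T23), stood at 321 (275 to 372), 394 (367 to 423) and 306 (285 to 329) CPM in NK cells. The 3-day level lay above the 7-day level without overlap of the intervals and its interval overlapped that of PBS at the edge, and the log2 ratio to PBS was 0.29 at 3 days (0.06 to 0.54 for the ratio of raw CPM, the form of every ratio interval below) and -0.07 (-0.31 to 0.18) at 7 days. The 3-day value depended on how NK cells were chosen, since it was -0.34 in cells taken by marker gates (Ncr1 or Eomes, and no Cd3 gene). After thinning, a Klrc1 UMI was seen in 27.8% (19.9 to 37.0%), 29.1% (24.7 to 33.8%) and 23% (18.7 to 27.6%) of NK cells, and these intervals overlapped. Of the read-length windows in the last 500 bases of Klrc1 transcripts, 19.3% occur letter for letter in Klrc2 and 85.4% lie within 4 bases of Klrc2 or Klrc3, so part of the Klrc1 level may belong to these genes. Klrc2 itself (NKG2C, an activating chain) stood at 366, 300 and 395 CPM.

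Klra8 was the member whose level in NK cells differed most from PBS, at each time. Klra8 (chr6:130115226-130129898), which encodes Ly49H, an activating receptor that signals through Tyrobp, stood at 635 CPM (570 to 705) in PBS, 352 (326 to 380) at 3 days and 434 (409 to 461) at 7 days, from 350, 683 and 1103 UMIs. The PBS level was the highest and none of the 3 intervals overlapped, with log2 ratios to PBS of -0.83 (-1.04 to -0.66) and -0.54 (-0.72 to -0.37), neither of which reached 2-fold. The share of NK cells with a Klra8 UMI moved less: it was 41.7%, 41.6% and 51.4% of cells, or 32.2% (23.8 to 41.5%), 24.6% (20.4 to 29.1%) and 29.5% (24.9 to 34.5%) after thinning, and these intervals overlapped. Within the cells that had a Klra8 UMI its level was 1254, 864 and 846 CPM. UMIs of 1 cell are not independent of each other, so the intervals on CPM understate the error of a gene that is expressed in part of the cells.

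The libraries also differed in the sex of the animals their NK cells came from. NK cells with Xist and no chromosome Y transcript numbered 52, 14 and 108, and those with a Y transcript and no Xist numbered 28, 201 and 173. In Xist cells Klra8 stood at 725 (642 to 816), 462 (341 to 613) and 426 (385 to 469) CPM, and in Y cells at 426 (295 to 595), 384 (348 to 422) and 412 (376 to 451) CPM. The difference from PBS was thus seen among Xist cells, while among Y cells the 3 intervals overlapped, with 34 UMIs of Klra8 in the 28 PBS cells. Klra4 and Klrc1 differed inside the PBS library by more than between libraries: Klra4 stood at 643 (565 to 729) CPM in Xist cells and 251 (153 to 387) in Y cells, and Klrc1 at 278 (227 to 336) and 602 (444 to 798). Treatment, sex and animal cannot be told apart from 1 library in each group.

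Klra9 (Ly49I), which is not among the members but whose sequence is close to that of Klra8, stood at 528, 310 and 274 CPM in NK cells, with log2 ratios to PBS of -0.75 (-0.97 to -0.56) and -0.92 (-1.15 to -0.75). None of the 3′ windows of Klra8 is shared letter for letter with another gene, but 76.3% lie within 4 bases of Klra9, Klra3, Klra6, Klra10 or a Klra pseudogene, and the part of misassigned reads in the Klra8 level was not tested. Klra3 stood at 174, 230 and 159 CPM, Klra6 at 14.5, 19.1 and 17.3 CPM and Klra10 at 5.44, 4.13 and 3.15 CPM.

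Klra4 (chr6:130043731-130067271), the other activating Ly49 receptor (Ly49D), stood at 569 (508 to 636), 612 (578 to 648) and 707 (675 to 741) CPM in NK cells. The 7-day level was the highest, its interval lay above both others, and its log2 ratio to PBS was 0.31 (0.14 to 0.49). A Klra4 UMI was seen in 33.0%, 38.8% and 47.3% of NK cells, or 23.5% (16.1 to 32.3%), 29.6% (25.1 to 34.3%) and 32.8% (28.0 to 37.9%) after thinning. In CPM both activating Ly49 genes thus stood apart from PBS at 7 days by their counting intervals, in opposite directions and by less than 2-fold. The intervals of their thinned shares of cells overlapped those of PBS. Under other settings the 7-day log2 ratio ranged from 0.28 to 0.54 for Klra4 and from -0.75 to -0.08 for Klra8. Klra7 (chr6:130218605-130233322), the inhibitory Ly49G2, stood at 546 (486 to 611), 497 (466 to 529) and 533 (505 to 562) CPM with overlapping intervals, and 85.5% of its 3′ windows lie within 4 bases of Klra4 or the pseudogene Klra13-ps.

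**Figure D2:**
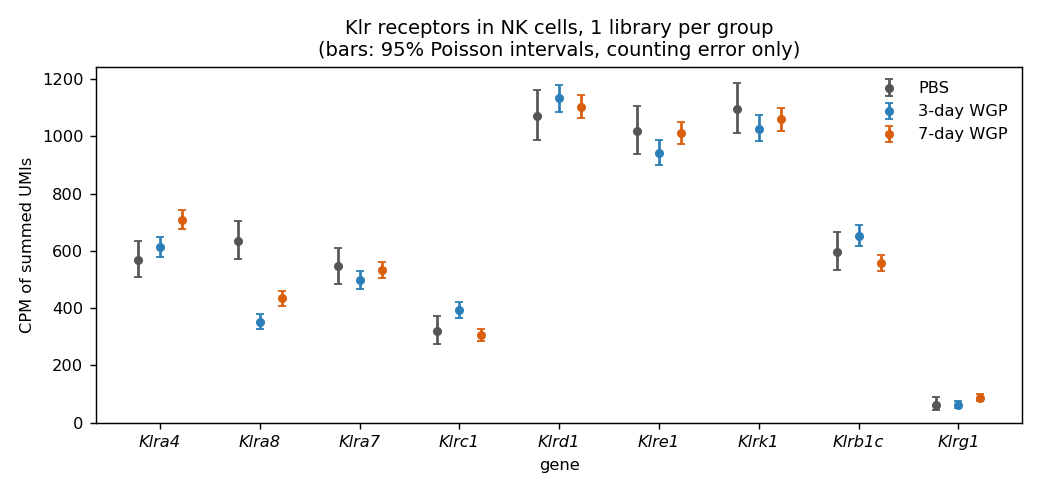
CPM of the 9 members that reached 10 CPM in NK cells, by library; points are sums over all NK cells of a library (115, 399 and 366 cells) and bars are 95% Poisson intervals, which cover counting error only. Klra8 lies at 635 CPM in PBS and at 352 and 434 CPM after WGP, whereas Klrd1, Klre1 and Klrk1 lie near 1000 CPM in each library.

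Klrg1 (chr6:122270596-122282882), an inhibitory receptor for E-cadherin that marks mature NK cells, was the lowest of the 9, at 63.5 (44.2 to 88.3), 62.9 (52.3 to 75.1) and 88.2 (77.0 to 100) CPM. After thinning a Klrg1 UMI was seen in 8.70% (4.25 to 15.4%), 4.76% (2.89 to 7.34%) and 6.28% (4.02 to 9.28%) of NK cells. The PBS interval overlapped those of both WGP libraries on each measure, while the 7-day CPM lay above the 3-day CPM without overlap, by 0.43 on the log2 scale (0.16 to 0.82), with overlapping shares of cells. The 198 NK cells with a Klrg1 UMI were compared as a description with the 682 without one, a split chosen after the data had been seen and made between cells of unequal depth (medians of 6300 and 4407 UMIs). The cells with Klrg1 had more of the protease gene Cma1, at 123 against 57.8 CPM, of the chemokine receptor Cx3cr1, at 21.1 against 3.98 CPM, and of granzyme A (Gzma), at 8475 against 5083 CPM. They had less of the immaturity marker Cd27, at 89.7 against 139 CPM, and of the chemokine receptor Cxcr6, at 10.6 against 24.8 CPM. The order was the same in each library for these 5 genes, and for Gzma the intervals never overlapped. The intervals of Cxcr6 overlapped in each library and those of Cd27 in PBS and at 3 days. At 7 days the intervals also overlapped for Cma1, at 78.1 (61.3 to 98.0) against 60.3 (48.8 to 73.6) CPM, and for Cx3cr1, at 8.44 (3.64 to 16.6) against 3.77 (1.38 to 8.20) CPM. These 5 genes were picked from the fixed list of maturation genes, and not all others of it differed. Over all libraries Eomes stood at 278 against 293 CPM and Tnfsf10 at 22.4 against 16.8 CPM, with overlapping intervals. Gzmb did differ, at 624 against 399 CPM. Zeb2 stood at 215 against 157 CPM, but at 176 against 180 CPM at 7 days. Klra8 stood at 997 (824 to 1196) CPM in PBS cells with Klrg1 and 538 (471 to 611) in those without, whereas at 3 days it stood at 303 (254 to 358) and 367 (337 to 399) CPM and at 7 days at 410 (371 to 453) and 448 (416 to 482) CPM. Klrd1 stood at 1092 and 1067, 1130 and 1132, and 1119 and 1092 CPM, with overlapping intervals in each library.

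Klrc1 was found mainly in NK cells with few Ly49 transcripts. In the 880 NK cells of all libraries, each thinned to 1000 UMIs, a Klrc1 UMI was seen in 37.2% (32.2 to 42.4%) of the 363 cells with no UMI of Klra4, Klra7 or Klra8, in 23.5% (18.8 to 28.6%) of the 307 cells with 1 of the 3 genes, in 13% (8.21 to 19.1%) of the 162 cells with 2 and in 8.33% (2.32 to 20%) of the 48 cells with all 3. The order held in each library from 0 to 2 genes, with 38%, 25.0% and 9.52% in PBS, 40.6%, 23.5% and 16.1% at 3 days and 32.3%, 23% and 11.4% at 7 days, while only 4, 25 and 19 cells held all 3. Median depths of the 4 groups were 4465, 5212, 4483 and 4634 UMIs and did not follow that order. Klrd1 was seen in 59.8%, 62.2%, 72.2% and 66.7% of the same groups, Klrb1c in 44.9%, 46.3%, 49.4% and 54.2%, and Klrk1 in 59.2%, 65.8%, 69.8% and 64.6%, without such a decline. At 7 days alone the Klrk1 shares did go down along the groups, at 66.9%, 64.4%, 60.8% and 47.4%. This is a description of these cells, without a test, and cells of 1 library share their animals.

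**Figure D3:**
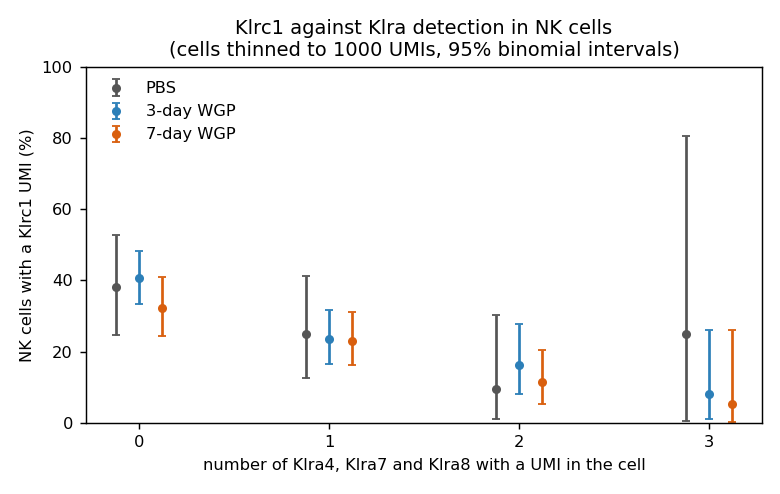
Percentage of NK cells with a Klrc1 UMI, after thinning to 1000 UMIs, by how many of Klra4, Klra7 and Klra8 had a UMI in the same cell; bars are 95% binomial intervals. The percentage is highest in cells with 0 of the 3 genes (38%, 40.6% and 32.3%) and lower in cells with 2 (9.52%, 16.1% and 11.4%), and the interval of the 4 PBS cells with all 3 spans most of the axis.

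With all libraries pooled, each of these Ly49 genes was seen in a larger share of the cells with another of them than of the cells without. A Klra8 UMI was seen in 41.9% of the thinned NK cells that had a Klra4 UMI and in 21.5% of those without, with 55.6% and 25.0% in PBS, 40.7% and 17.8% at 3 days, and 40% and 24.4% at 7 days. Klra7 was seen in 38.9% of cells with Klra4 and 26.7% of those without, with overlapping intervals in PBS (33.3% and 23.9%) and at 7 days (36.7% and 31.7%). Klra8 was seen in 34.5% of cells with Klra7 and 24.6% of those without, but in PBS the order was the opposite, at 30% (14.7 to 49.4%) of the 30 cells with Klra7 and 32.9% (23.1 to 44.0%) of the 85 without. The part of reads assigned to the wrong one of these genes was not tested. Klrc1 was seen in 12.5% of cells with Klra4 and in 32.4% of those without, and the order was the same in each library.

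The adaptors and phosphatases through which these receptors signal were in place in NK cells of all 3 libraries. Of 15 signalling partners, a list of adaptors, kinases and phosphatases, all 15 reached 10 CPM. At 3 days 0 were 2-fold apart from PBS in either direction, and at 7 days 0 were higher and 1 lower, with list medians of the log2 ratio of -0.03 and 0.01. Over all genes tested 0.869% were higher and 0.371% lower at 3 days, and 1.58% and 0.494% at 7 days, so such counts in a short list say little. Tyrobp stood at 2574, 2757 and 2678 CPM, Hcst at 535, 510 and 509 CPM and the Fc receptor gamma chain Fcer1g at 2340, 2362 and 2098 CPM. The exception was Ptpn6, the phosphatase recruited by inhibitory receptors, at 185, 120 and 75.6 CPM. Its log2 ratios to PBS were -0.59 (-0.97 to -0.28) and -1.19 (-1.65 to -0.93).

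Of the ligand genes, 15 were in the gene tables and 7 reached 10 CPM in NK cells, and 0 of the 7 were 2-fold apart from PBS at either time. Among all genes tested the shares were 0.869% higher and 0.371% lower at 3 days, and 1.58% and 0.494% at 7 days. H2-T23, the Qa-1 ligand of the CD94 and NKG2A pair, stood at 381, 285 and 383 CPM in NK cells, and at 485, 533 and 800 CPM in Ly6C-high monocytes. The class I genes H2-D1 and H2-K1, whose products Ly49 receptors bind, stood at 3038, 3352 and 3451 CPM and at 3408, 3913 and 4028 CPM in NK cells. Clec2d, the ligand of an inhibitory Klrb1 receptor, stood at 225, 170 and 189 CPM, and the NKG2D ligand gene Ulbp1 at 16.3, 10.3 and 17.3 CPM. The Klrg1 ligand gene Cdh1 (E-cadherin) was below 10 CPM in NK cells of each library, at 7.25, 1.55 and 0 CPM from only 4, 3 and 0 UMIs.

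Of 22 tested genes of NK cell maturation and other NK receptors, 0 were higher and 1 was lower than PBS by 2-fold at each time, the integrin Itga1, which marks tissue-resident lymphocytes. For all genes tested the shares were 0.869% higher and 0.371% lower at 3 days, and 1.58% and 0.494% at 7 days. Itga1 stood at 58.0, 7.22 and 13.8 CPM. Its log2 ratios to PBS were -1.98 and -1.52, from 32, 14 and 35 UMIs. Cd27 (156, 109 and 128 CPM) and Itgam (92.5, 84.6 and 118 CPM), which divide maturation stages, were less than 2-fold from PBS. Of the 16 other Klr genes 10 were tested in NK cells, and 0 were 2-fold apart at either time, beside the same shares over all genes. Besides Klra9, the largest of these differences was for Klrb1a (NKR-P1A), at 210, 203 and 118 CPM, with a log2 ratio of -0.79 (-1.15 to -0.52) at 7 days, whereas the inhibitory Klrb1b stood at 112, 105 and 153 CPM.

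L1 carried most of the NK cell set but not the activating Ly49 genes. Klrd1 stood at 673, 617 and 627 CPM. It was seen in 83.2%, 88.8% and 94.5% of the L1 cells, whose median depths were 3695, 4546 and 7560 UMIs. After thinning the shares were 44.8%, 50% and 41.9%. Klra7 stood at 292, 308 and 379 CPM and Klre1 at 284, 332 and 282 CPM. Klra4 had 0, 2 and 3 UMIs in the 125, 98 and 217 cells, and Klra8 had 8, 0 and 1 UMIs, 6 of the 8 in 1 cell. Klra7 was thus present in L1 nearly without Klra4, whereas NK cells held both.

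Between libraries, Klrk1 in L1 was highest in PBS, at 741 (672 to 815), 529 (472 to 592) and 441 (411 to 472) CPM. Its log2 ratios to PBS were -0.48 (-0.70 to -0.27) and -0.74 (-0.92 to -0.58). Klrb1c stood at 190 (156 to 229), 258 (218 to 303) and 106 (91.4 to 121) CPM, lowest at 7 days with a log2 ratio of -0.79 (-1.19 to -0.49), and its thinned share of cells was 16.8%, 25.5% and 8.76%. Klrc1 stood at 324 (279 to 374), 268 (228 to 314) and 207 (187 to 229) CPM, with a log2 ratio of -0.62 (-0.90 to -0.38) at 7 days. Of 7 members tested, 0 were 2-fold higher at 3 days, where 1.64% of 7756 genes were, and 1 was lower, where 1.24% were. At 7 days 0 were higher (2.79% of 7753 genes) and 1 lower (0.568%). The lower member was Klra8 both times, which rests on the 8 PBS UMIs in 2 cells. The makeup of L1 also differed, with Cd8a seen in 11.2%, 7.14% and 33.6% of its cells, Ncr1 in 22.4%, 24.5% and 19.4%, and Cd3e in 72.8%, 77.6% and 84.3%. Xist cells of L1 numbered 27, 3 and 67 and Y cells 57, 49 and 111. Among Y cells Klrk1 stood at 763, 495 and 468 CPM, while Klrb1c stood at 132 (87.6 to 191), 290 (235 to 355) and 103 (84.7 to 125) CPM and Klrc1 at 306 (236 to 390), 333 (273 to 401) and 258 (228 to 291) CPM, with overlap between PBS and 7 days for both. The part of makeup and sex in the L1 differences was not tested.

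In CD8 T cells the receptors belonged to the effector-like cluster. Cluster L8 (leading genes Gzmk, Gzmm and Ccl5; 52, 70 and 69 cells) and cluster L7 (Ccr7 and Lef1, genes of naive T cells; 34, 97 and 68 cells) made up the class, L8 holding most of it in PBS and L7 at 3 days. Over all libraries Klrk1 stood at 285 CPM in L8 and 16.7 in L7, Klrc1 at 211 and 16.1, and Klre1 at 151 and 11.4 CPM. Klrd1 was present in both, at 378 and 229 CPM, so that in L7 it was found with little of its partner Klrc1. Klrg1 stood at 92.5 CPM in L8 and 5.36 CPM in L7.

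Klrg1 was the member that differed most between libraries in CD8 T cells. In L8 it stood at 207 (162 to 260) CPM in PBS, 30 (14.4 to 55.2) at 3 days and 58.2 (39.8 to 82.1) at 7 days, from 72, 10 and 32 UMIs. The PBS level was the highest, without overlap, but the 72 UMIs came from 14 cells and 15 of them from a single cell, and a Klrg1 UMI was seen in 26.9%, 12.9% and 20.3% of L8 cells, against at most 1.37% for any member in B cells. In the whole class Klrg1 stood at 129, 10.1 and 36.2 CPM. Its log2 ratios to PBS were -2.79 and -1.59. The difference was seen in the 34, 59 and 63 Xist cells of the class, at 181 (140 to 231), 3.98 (0.482 to 14.4) and 15 (6.04 to 30.9) CPM, whereas in the 24, 53 and 45 Y cells Klrg1 stood at 30.3 (6.25 to 88.5), 16.9 (5.49 to 39.5) and 34.6 (18.9 to 58.1) CPM with overlapping intervals.

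The other members of L8 took other directions. Klrk1 stood at 192, 321 and 322 CPM in L8, Klrc1 at 187, 150 and 264 CPM, Klrd1 at 319, 414 and 394 CPM and Klre1 at 218, 123 and 125 CPM. In the whole class 7 members were tested at 3 days, of which 1 was 2-fold higher (Klra7, from 1 and 16 UMIs), where 0.709% of 7755 genes were, and 3 were lower (Klrc1, Klre1 and Klrg1), where 3.13% were and the median log2 ratio of all genes was -0.11. The 3-day class held more L7 than L8 cells. In L8 alone Klrc1 and Klre1 were less than 2-fold from PBS at 3 days, while Klrg1 was still more than 2-fold lower. The part of the makeup in these differences was not tested. The 3-day value of Klra7, a log2 ratio of 1.07, turned to -0.41 without barcodes of more than 8431 UMIs and to -0.49 with CD8 T cells taken by marker gates. At 7 days 6 members were tested, of which 1 was higher (Klra7, from 1 and 22 UMIs), where 0.964% of 7779 genes were, and 1 was lower (Klrg1), where 0.874% were.

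Klrk1 was the main member in gamma-delta T cells. It stood at 211, 186 and 214 CPM. Its log2 ratios to PBS were -0.17 (-0.59 to 0.24) and 0.02 (-0.52 to 0.55), and its adaptor Hcst stood at 449, 352 and 408 CPM. No other member exceeded 18.1 CPM in any library, and Klra4 and Klra8 had 0 UMIs in all 342 cells, which allows a share of cells with a UMI of up to 0.877% each (the share that 3 cells would make). Of 4 members tested at 3 days 0 were 2-fold higher (1.69% of 7992 genes) and 1 was lower (1.84%), and of 3 at 7 days 0 were higher (4.45% of 8081 genes) and 1 was lower (5.99%). The lower member was Klra7 both times, whose 6 PBS UMIs all came from 1 cell. With the class taken by marker gates its log2 ratios were 0.32 and 1.38, in place of -1.07 and -1.49.

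In ILC2 Klrg1 led, and every other member stood at or below 10 CPM in PBS and 3-day WGP. Klrg1 stood at 263 (235 to 294) CPM in PBS and 454 (410 to 500) at 3 days, a log2 ratio of 0.76 (0.57 to 1), and at 219 (143 to 320) CPM in the 15 ILC2 left at 7 days, too few for a ratio. The 3-day level was the highest and its interval overlapped neither of the others. It was also higher in each of the clusters of the class, at 246 (215 to 280) against 436 (368 to 514) CPM in L4 and at 318 (256 to 391) against 464 (409 to 525) CPM in L5, and after thinning Klrg1 was seen in 23.5%, 35.7% and 20% of ILC2. The difference was smaller among Y cells: in the 85 of PBS and 122 of 3-day WGP Klrg1 stood at 307 (246 to 379) and 383 (326 to 446) CPM, a log2 ratio of 0.31 with overlapping intervals, while the 85 Xist cells of PBS stood at 204 (170 to 243) CPM and only 3 Xist cells were found at 3 days. In the 94 and 152 cells with neither or both kinds of transcript Klrg1 stood at 348 (284 to 423) and 535 (469 to 609) CPM. That is a log2 ratio of 0.61, with intervals apart. Klrg1 was the single member tested, and it was not 2-fold higher, where 0.829% of 7716 genes were, nor lower, where 0.778% were. Regulatory T cells also carried Klrg1, at 238, 317 and 174 CPM in 12, 22 and 49 cells, so that ILC2 and regulatory T cells held more Klrg1 in CPM than NK cells did.

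Conventional dendritic cells carried Klrd1 and Klrk1 with little or no Klrb1c and Klrc1. In type 2 conventional dendritic cells (cDC2; 123, 38 and 141 cells) Klrd1 stood at 358 (330 to 388), 667 (595 to 745) and 492 (459 to 526) CPM. It was seen in 75.6%, 76.3% and 80.1% of these cells, or 26%, 42.1% and 31.9% after thinning. Klrb1c had 0 UMIs in all 302 cDC2 and Klrc1 had 4, and in the 292 type 1 conventional dendritic cells (cDC1) both had 0. Plasmacytoid dendritic cells held Klrd1 at 339, 459 and 403 CPM, cDC1 at 42.5, 28.3 and 37.3 CPM, and migratory dendritic cells at 101, 125 and 168 CPM. Migratory dendritic cells (14, 39 and 42 cells) also held UMIs of other members after WGP, with Klrb1c at 0, 8.94 and 11.2 CPM, Klra7 at 0, 20.9 and 25.2 CPM and Klrc1 at 0, 8.94 and 0 CPM, from at most 9 UMIs each.

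Klrk1 was highest at 7 days in cDC2, cDC1, migratory dendritic cells and plasmacytoid dendritic cells. In cDC2 it stood at 91.3 (77.5 to 107), 120 (90.4 to 155) and 289 (265 to 316) CPM, with a log2 ratio of 1.56 (1.40 to 1.93) at 7 days, and the thinned share of cells was 5.69% (2.32 to 11.4%), 10.5% (2.94 to 24.8%) and 26.2% (19.2 to 34.3%). It was the 1 of 4 tested members that was 2-fold higher in cDC2 at 7 days, where 2.86% of 7729 genes were. In cDC1 Klrk1 stood at 94.8, 133 and 163 CPM, with a log2 ratio of 0.72 (0.50 to 1.07) at 7 days, in migratory dendritic cells at 101, 122 and 261 CPM, in plasmacytoid dendritic cells at 0, 20.7 and 88.1 CPM (0, 8 and 28 UMIs, 12 of the 28 in 1 cell), and in Ly6C-high monocytes at 33.5, 24.3 and 60.4 CPM. Each of these 5 classes had its highest value at 7 days, and so did Klrk1 in barcodes of at most 100 UMIs, which hold free RNA, at 33.5, 46.7 and 97.4 CPM, and the part of free RNA in these levels was not tested. The NKG2D adaptor Hcst stood at 25.7, 19.2 and 21.2 CPM in cDC2, where Tyrobp stood at 1415, 1750 and 1915 CPM.

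The cDC2 of the libraries also differed in their markers and in sex. The lectin Cd209a, a marker of the class, stood at 1315, 586 and 601 CPM in cDC2, and Clec10a at 455, 173 and 281 CPM and in 77.2%, 28.9% and 53.2% of cells. Xist cells numbered 120, 9 and 39 and Y cells 2, 19 and 84. In Xist cells Klrk1 stood at 91.4 (77.6 to 107), 153 (92.2 to 239) and 235 (194 to 283) CPM, a log2 ratio of 1.27 at 7 days, so that it was also more than 2-fold higher there. In the 84 Y cells at 7 days it stood at 301 (269 to 335) CPM, and the 2 Y cells of PBS gave no comparison. In cDC1 the 65 and 22 Xist cells of PBS and 7 days held Klrk1 at 89.5 (74.2 to 107) and 117 (88.5 to 151) CPM, and the 27 and 51 Y cells at 116 (80.0 to 161) and 176 (152 to 204) CPM, both with overlapping intervals. The part of the makeup and of sex in these levels was not tested.

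Klra2 (chr6:131219223-131247362), whose product Ly49B is the Ly49 receptor known from myeloid cells, was near 0 in NK cells, with 0, 1 and 2 UMIs in 115, 399 and 366 cells. It was highest in monocytes. In Ly6C-high monocytes (80, 130 and 308 cells) Klra2 stood at 166 (139 to 197), 208 (187 to 231) and 306 (287 to 326) CPM. Its log2 ratios to PBS were 0.31 (0.03 to 0.63) and 0.85 (0.62 to 1.16). It was seen in 70.0%, 81.5% and 89.0% of these cells, whose median depths were 9790, 13384 and 9887 UMIs. After thinning the shares were 17.5%, 14.6% and 27.6% in the draw used, and 16%, 18.8% and 25.8% on average over all draws. The order of PBS and 3-day WGP in these shares thus depended on the draw. In the 71 and 121 Xist cells of PBS and 7 days Klra2 stood at 155 (128 to 187) and 291 (261 to 324) CPM, a log2 ratio of 0.87, and PBS held only 2 Y cells. In Ly6C-low monocytes (51, 15 and 37 cells), which patrol vessels, it stood at 317 (256 to 389), 231 (155 to 332) and 208 (152 to 278) CPM, with a log2 ratio of -0.59 (-1.16 to -0.08) at 7 days. In the 45 and 24 Xist cells of PBS and 7 days it stood at 297 (236 to 370) and 218 (148 to 310) CPM, with overlapping intervals. The order of the libraries was thus opposite in the monocyte classes, from 29 and 45 UMIs in the Ly6C-low cells after WGP, and the difference was not tested.

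In the macrophage clusters M1, M4 and M5 Klra2 depended on the cluster. M0 and M8, described with them, could not be named as either monocytes or macrophages, and their best marker list was that of Ly6C-high monocytes. The tissue macrophage cluster M5 (Cd209f; 271, 44 and 10 cells) held 4.96, 10.4 and 11.6 CPM, of 14, 4 and 1 UMIs, and M4 (Fcrls; 338, 51 and 33 cells) held 46.4 (39.7 to 53.8), 87.4 (62.2 to 120) and 171 (128 to 224) CPM. The clusters found mainly after WGP held more than M5, but M1 held less than M4 at each time, with intervals apart at 3 days only. M1 (Arg1; 4, 388 and 274 cells) held 55.6 (50.1 to 61.5) CPM at 3 days and 132 (121 to 143) at 7 days. M8 (Tppp3; 37 and 108 cells after WGP, 0 in PBS) held 132 (103 to 166) and 260 (232 to 290) CPM. M0 (Cxcl9 and Ly6i; 26, 43 and 661 cells) held 120 (83.8 to 166), 120 (92.1 to 154) and 236 (225 to 247) CPM. In M0, M1, M4 and M8 the 7-day level was the highest, and its interval lay above that of 3 days. Free RNA of the 7-day library also held more Klra2, at 17.4, 26.4 and 92.6 CPM, and its part in these levels was not tested. In the same libraries Klra2 stayed at or below 11.6 CPM in M5 and at or below 1.11 CPM in cDC1.

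**Figure D4:**
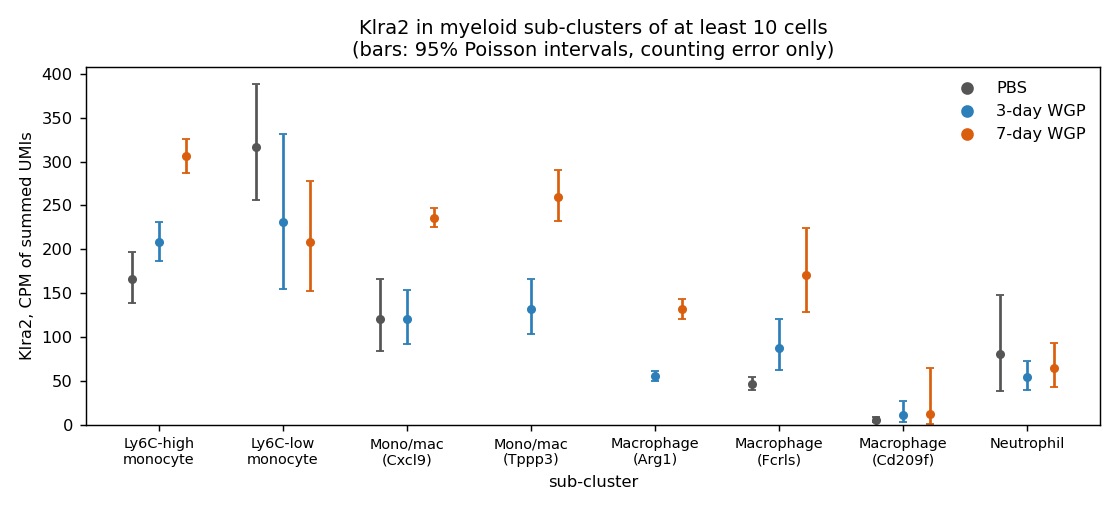
Klra2 in myeloid clusters by library, for clusters with at least 10 cells in the library; points are CPM of summed UMIs and bars 95% Poisson intervals, counting error only. The 7-day points are the highest in Ly6C-high monocytes (306 CPM) and in the Cxcl9, Tppp3, Arg1 and Fcrls clusters, while the Cd209f macrophages stay near 0 and the Ly6C-low monocytes are highest in PBS (317 CPM).

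The genes whose pattern was most like that of a member were found by Pearson correlation of log2(CPM + 10) over 57 sums of a class in a library, among 7854 genes, as a description, since the points share libraries and depth. For Klra2 these were Gm36161 (0.956), Gm21188 (0.951), Csf1r (0.938), Fcgr4 (0.936) and Abcd2 (0.933). For Klrg1 the values were lower: Fhl2 (0.818), the ILC2 transcription factor Gata3 (0.8), Nrgn (0.787), Ccdc184 (0.771) and Gfi1 (0.771). For Klrb1c they were Ncr1 (0.966), Klra7 (0.953), the integrin Itga2 (0.945), Klrc2 (0.943) and Klre1 (0.943), genes of NK cells.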

How the data were processed

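The authors captured cells in droplets (10x Genomics 3′ kit, v3.1) and counted genes with Cell Ranger 3.1.0 on mm10 (GRCm38), per the labels. The deposited values are raw UMI counts per gene and barcode, without normalization or cell selection, and the authors left all barcodes in. Columns of values left unused numbered 0.

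Totals were 52464690, 56849043 and 48219246 UMIs (PBS, 3-day WGP, 7-day WGP). Barcodes of at least 1000 UMIs numbered 5689, 5085 and 4521, of which 440, 206 and 347 had over 30% mitochondrial UMIs. The automatic Scrublet threshold (scanpy 1.11.5) marked 0, 1 and 1 barcodes, so the highest scores were removed instead, up to 0.8% per 1000 barcodes (220, 190 and 139). The study's filter, which tested barcodes against free RNA and also removed ribosomal and high-count barcodes, was not repeated. Cells of all libraries were clustered with sctransform 0.4.2, 30 principal components and Louvain in Seurat 5.3.0 (R 4.3.3), with 3000 variable genes from which the Klr genes, Xist and chromosome Y genes were left out. Lymphoid and myeloid cells were then clustered again at a resolution of 0.8, and named from fixed markers.

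UMIs were summed over each class in each library and given as CPM with exact Poisson intervals, and shares of cells with exact binomial (Clopper-Pearson) intervals, at 95%. Ratios were log2 of CPM + 10, for genes of at least 10 CPM in either library and classes of at least 30 cells in both. The added 10 CPM understates differences of low genes. Interval bounds of a ratio come from the exact binomial on the raw counts. Shares were thinned to 1000 UMIs per cell in 1 random draw, whose error is in no interval. Each 3′ UMI counts 1 transcript end, so levels were not divided by length. Scripts for ratios were tested on simulated data.

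The named genes were all 10 members, other Klr genes with at least 10 UMIs in NK cells, fixed lists of signalling partners, ligands and maturation genes, and the 5 genes most like Klra2, Klrg1 and Klrb1c. The members and lists were chosen with earlier results of these data known. Chosen after values were seen were the doublet replacement, the limits for naming clusters, the removal of 10 mast cell barcodes (at least 5 UMIs of Cpa3, Mcpt4 and Tpsb2), the splits of NK cells, the CD8 T cell clusters, the equal weighting of cells, and the choice not to compare CD4 T cells and macrophages as classes, since each has a cluster led by markers of another class. The tail motif was searched on GENCODE M21 coding sequences as 6 residues, isoleucine, leucine, valine or serine first, any residue, tyrosine, any pair of residues, and leucine, valine or isoleucine last, in the first 30 codons. Serine and the window of 30 codons were set after the first matches. Windows of 91 bases in the last 500 bases of each transcript were compared with all other transcripts. Tools were Python 3.11.15, NumPy 2.4.6, SciPy 1.17.1, pandas 2.3.3 and Matplotlib 3.10.9.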

Additional observations from a re-analysis of the deposited data

Results flagged for a closer look

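Barcodes of at most 100 UMIs belong to no class, and their RNA is free RNA. In them the members other than Klrg1 were above their PBS level in at least 1 WGP library, beyond the counting intervals. How many of all genes were so was not counted, so this is not a trait particular to the members. In PBS the free RNA held Klra2 at 17.4, Klra4 at 9.92, Klra7 at 12.4, Klra8 at 7.93, Klrb1c at 10.9, Klrc1 at 8.68, Klrd1 at 43.1, Klre1 at 19.3 and Klrk1 at 33.5 CPM. In 3-day WGP it held Klra4 at 21.8, Klra7 at 23.3, Klra8 at 17, Klrb1c at 26.4, Klrc1 at 19, Klrd1 at 87.5, Klre1 at 39.6 and Klrk1 at 46.7 CPM. In 7-day WGP it held Klra2 at 92.6, Klra4 at 42, Klra7 at 47.2, Klra8 at 27.1, Klrb1c at 32.3, Klrc1 at 36, Klrd1 at 137, Klre1 at 70.7 and Klrk1 at 97.4 CPM. Klrg1 was at 7.68, 7.36 and 8.83 CPM, with overlapping intervals. NK cells, the main carriers of most of these genes, made up 2.29%, 8.51% and 9.07% of the cells. Their part in the free RNA levels was not tested.

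Klra7 lay at least 2-fold above PBS in CD8 T cells at 3 days, with a log2 ratio of 1.07 from 16 and 1 UMIs, and at least 2-fold below PBS in gamma-delta T cells, with -1.07 from 3 and 6 UMIs. The 6 PBS UMIs of the gamma-delta T cells came from 1 cell. Both counting intervals lay beyond 0 in opposite directions, and the difference between the classes was not tested. The direction turned in both classes under other settings: in CD8 T cells the log2 ratio was -0.41 without barcodes above 8431 UMIs and -0.49 under marker gates, and in gamma-delta T cells it was 0.32 under marker gates.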

How the results depend on the processing

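No paired analysis was possible because each group has 1 library, and leaving out a replicate was not possible for the same reason. Counts of members 2-fold apart in NK cells were the same in 41 of 42 recomputations. The exception was the count of members lower at 3 days with classes made by marker gates, which was 1 in place of 0 (Klra8, log2 ratio -1.01). Over all alternatives the log2 ratio of Klra8 in NK cells ranged from -1.01 to -0.48 at 3 days and from -0.75 to -0.08 at 7 days. Ratios near 0 changed sign: Klrc1 at 3 days ranged from -0.34 to 0.34, Klra4 at 3 days from -0.08 to 0.35 and Klrg1 at 7 days from -0.28 to 0.54. Of 210 recomputed NK cell ratios 30 moved beyond their counting interval and 0 changed sign as a 2-fold call, and of 2210 in other classes 390 moved and 5 reversed. Klra7 in CD8 T cells at 3 days was -0.41 without barcodes above the knee (8431 UMIs) and -0.49 under marker gates, Klra7 in gamma-delta T cells was 0.32 at 3 days and 1.38 at 7 days under marker gates, and Klre1 in CD4 T cells at 3 days was -1.06 in Xist cells in place of 1.04. The cause was not tested. The gates gave no innate-like T, CD4 T, B or myeloid class. Xist cells at 3 days and Y cells gave no NK cell ratio, with under 30 cells in a library. The weighting of each cell equally and the average over draws of 1000 UMIs were added after the data were seen.

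The count of genes 2-fold apart from PBS in NK cells depended on the setting, from 68 higher and 29 lower at 3 days and 125 and 39 at 7 days. With 1 CPM added in place of 10 it was 270, 271, 356 and 216 in the same order, and under marker gates 123, 87, 122 and 98. Without barcodes above the knee the lower counts were 75 and 78, with equal weights 106 and 85, and in Xist cells at 7 days 279 were higher and 88 lower. Levels from a few UMIs in small classes are limited by depth: the 3 counts that a count of 0 allows are 5.44 CPM in PBS NK cells.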
